A study of Rattus norvegicus with 39 samples.

Results

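Proteasome subunits and ubiquitin enzymes were examined in hippocampal CA1 tissue of male rats kept at different levels of corticosterone, the rat's principal glucocorticoid. The members were the probe sets of the array with a single gene symbol that begins with Psma, Psmb, Psmc, Psmd, Psme, Ube or Uch, or with Usp and a digit, without Psmb8 and Psmb9. They were 41 of the 4736 genes with a single-symbol probe set, and had 68 of the array's 8799 probe sets. A probe set is a group of short oligonucleotides designed on 1 transcript record, and 15 of the 39 genes tested had more than 1. Counts below are of probe sets. Of the 68, 62 probe sets of 39 genes had a mean log2 value of at least 6.28 over all arrays and were tested. The 6 dimmer ones were probe sets of Psma1, Psma5, Psma6 and Psme1, which had brighter probe sets as well, and the only probe sets of Ube2d2b and Ube2q2. If the digit were required after every stem, the 3 probe sets of Uchl1 would drop out and 65 would remain.

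All 39 rats were of the strain Fisher 344 and 18 months old at the end of the study, and each was measured on 1 array. The Sham group (n = 10) was operated without loss of the adrenals and was given an inert pellet. All others were adrenalectomized and carried a slow-release corticosterone pellet for 3 months, of 25 mg in the Low-CORT group (n = 10) and of 200 mg in the Intermediate-CORT group (n = 9). Injected animals (n = 10) had the 25 mg pellet too and were given 5 mg of corticosterone per day on 4 days just before the end. Adrenalectomized rats had been given corticosterone injections and saline with sucrose to drink before the pellets, and the animals on the 25 mg pellet stayed on that drinking fluid, so fluid and dose differed together. Whole blocks of CA1 tissue were used, and the surgery also removes the other adrenal hormones. The comparisons ask which CA1 transcripts follow the glucocorticoid level.

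The proteasome degrades proteins tagged with ubiquitin. Its 20S core is a barrel of outer rings of alpha subunits (Psma genes) around inner rings of beta subunits (Psmb genes), and some beta subunits carry the proteolytic sites. The 19S cap recognises and unfolds the tagged protein with a ring of ATPases (Psmc genes) and non-ATPase subunits (Psmd genes). Activators of the Psme family can bind the core in place of the cap. Ubiquitin is attached by E2 conjugating enzymes (Ube2 genes) together with E3 ligases such as Ube3a, and removed by deubiquitinating enzymes such as Uchl1 and the Usp family. Glucocorticoids are known for raising genes of this system in wasting muscle. In neurons the system takes part in the turnover of synaptic proteins. Psme1 and Psme2 encode the alpha and beta subunits of the activator PA28, and both are known as genes induced by interferon gamma.

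Psme1 carried the 1 call of a difference between groups, so the region before its start is shown first. It comes from RefSeq on assembly GRCr8, plus strand, chr15:33038721-33038961, and its 241 bases end just before the annotated gene. The capitals mark a GC box, GGGCGG, a common promoter motif.
Psme1: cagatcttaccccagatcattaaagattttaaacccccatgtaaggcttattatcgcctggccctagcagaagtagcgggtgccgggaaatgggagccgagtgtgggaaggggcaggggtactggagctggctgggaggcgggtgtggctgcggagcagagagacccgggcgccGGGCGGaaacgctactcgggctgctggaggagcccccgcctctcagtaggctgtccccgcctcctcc
Psme2 lies on the same chromosome, with 1 protein-coding gene, Emc9, between them in the annotation. The second stretch, 30 bases of the minus strand at chr15:33052785-33052814, is shown because it holds in capitals a core of the interferon-stimulated element, searched as GAAA, 2 free bases and GAAA. It lies in the 250 bases before the RefSeq start used for Psme2, inside the gene's annotated span, which begins farther upstream.
Psme2: cctggagagtGAAAGCGAAAgctggggctg
The interferon motif was found, on either strand, in the 250 bases before the start of 3 of the 40 member genes with a promoter sequence (7.5%), namely Psma4, Psmb3 and Psme2. It was found in 3.29% of 27457 promoters of the genome and in 2.73% of the 3880 promoters of genes on the array. The antioxidant response element TGACNNNGC was found in 7 of 40 (17.5%), against 10.2% of all promoters and 12.3% of the array's genes. These were Psmb2, Psmb5, Psmd1, Psme4, Ube2d2, Ube2g2 and Ube2q2. The GC box was found in 29 of 40 (72.5%), against 32.4% of all promoters and 53.0% of those of genes on the array. These matches describe letters in a window and not binding sites.

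Few proteasome and ubiquitin probe sets were called between the corticosterone groups, and the shares called over all probe sets were small too. With limma and Benjamini-Hochberg adjustment over the 6118 probe sets tested, a probe set was called at an adjusted p under 0.05. The F test over the 4 groups called 1 of 62 members (1.61%), Psme1, where 2.27% of all probe sets were called. For Low-CORT against Sham, 0 of 62 members were called, where 1.68% of all probe sets were. For Intermediate-CORT against Low-CORT, 1 of 62 was called, again Psme1 and lower with the larger pellet, where 2.14% of all probe sets were called and 1.5% were called lower. For the injected group 0 members were called against Sham, Low-CORT or Intermediate-CORT, where 0.229%, 0.343% and 0.196% of all probe sets were called. For Intermediate-CORT against Sham 0 members were called, where 0.0163% of all probe sets were.

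The shares of members at an unadjusted limma p under 0.05 were below those of the array in 5 of the 6 comparisons and above it in the other one. The counts were 6 of 62 members (9.68%) for Low-CORT against Sham, where 13.6% of all probe sets passed, and 3 of 62 (4.84%) for Intermediate-CORT against Low-CORT, where 11.9% passed. For Intermediate-CORT against Sham 0 members passed, where 4.22% of all probe sets did. For the injected group 3 of 62 passed against Sham, where 5.95% of all did, and 3 of 62 against Low-CORT, where 7.37% did. Against Intermediate-CORT 12 of 62 passed (19.4%), where 11.4% of all did. All 12 were lower in the injected group, and they were probe sets of Psma6, Psmb2 (2), Psmb3 (2), Psmb5, Psmc2, Psmc4, Psmd1, Psmd10, Ube2b and Uchl1.

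The intervals show what size of difference the design leaves for the members. The 95% interval of the difference lay within 0.5 of 0 on the log2 scale, a fold of 1.41 either way, for 59 of 62 members in Low-CORT against Sham and 61 of 62 in Intermediate-CORT against Sham. It did so for 59 in Intermediate-CORT against Low-CORT, 58 in injected against Sham, 60 in injected against Low-CORT and 54 in injected against Intermediate-CORT. Over all probe sets the shares were 93.0% to 96.1%. The members' share was below that of all probe sets in injected against Intermediate-CORT (87.1%, beside 93.0%) and injected against Sham (93.5%, beside 95.4%). In the other comparisons it was above. The members with wider intervals in these comparisons were probe sets of Psma2, Psmb2, Psmb5, Psmc2, Psmd10 and Uchl1. The median difference of the 62 members lay between -0.06 and 0.04 in the 6 comparisons, and that of all probe sets between -0.01 and 0.02.

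**Figure D1:**
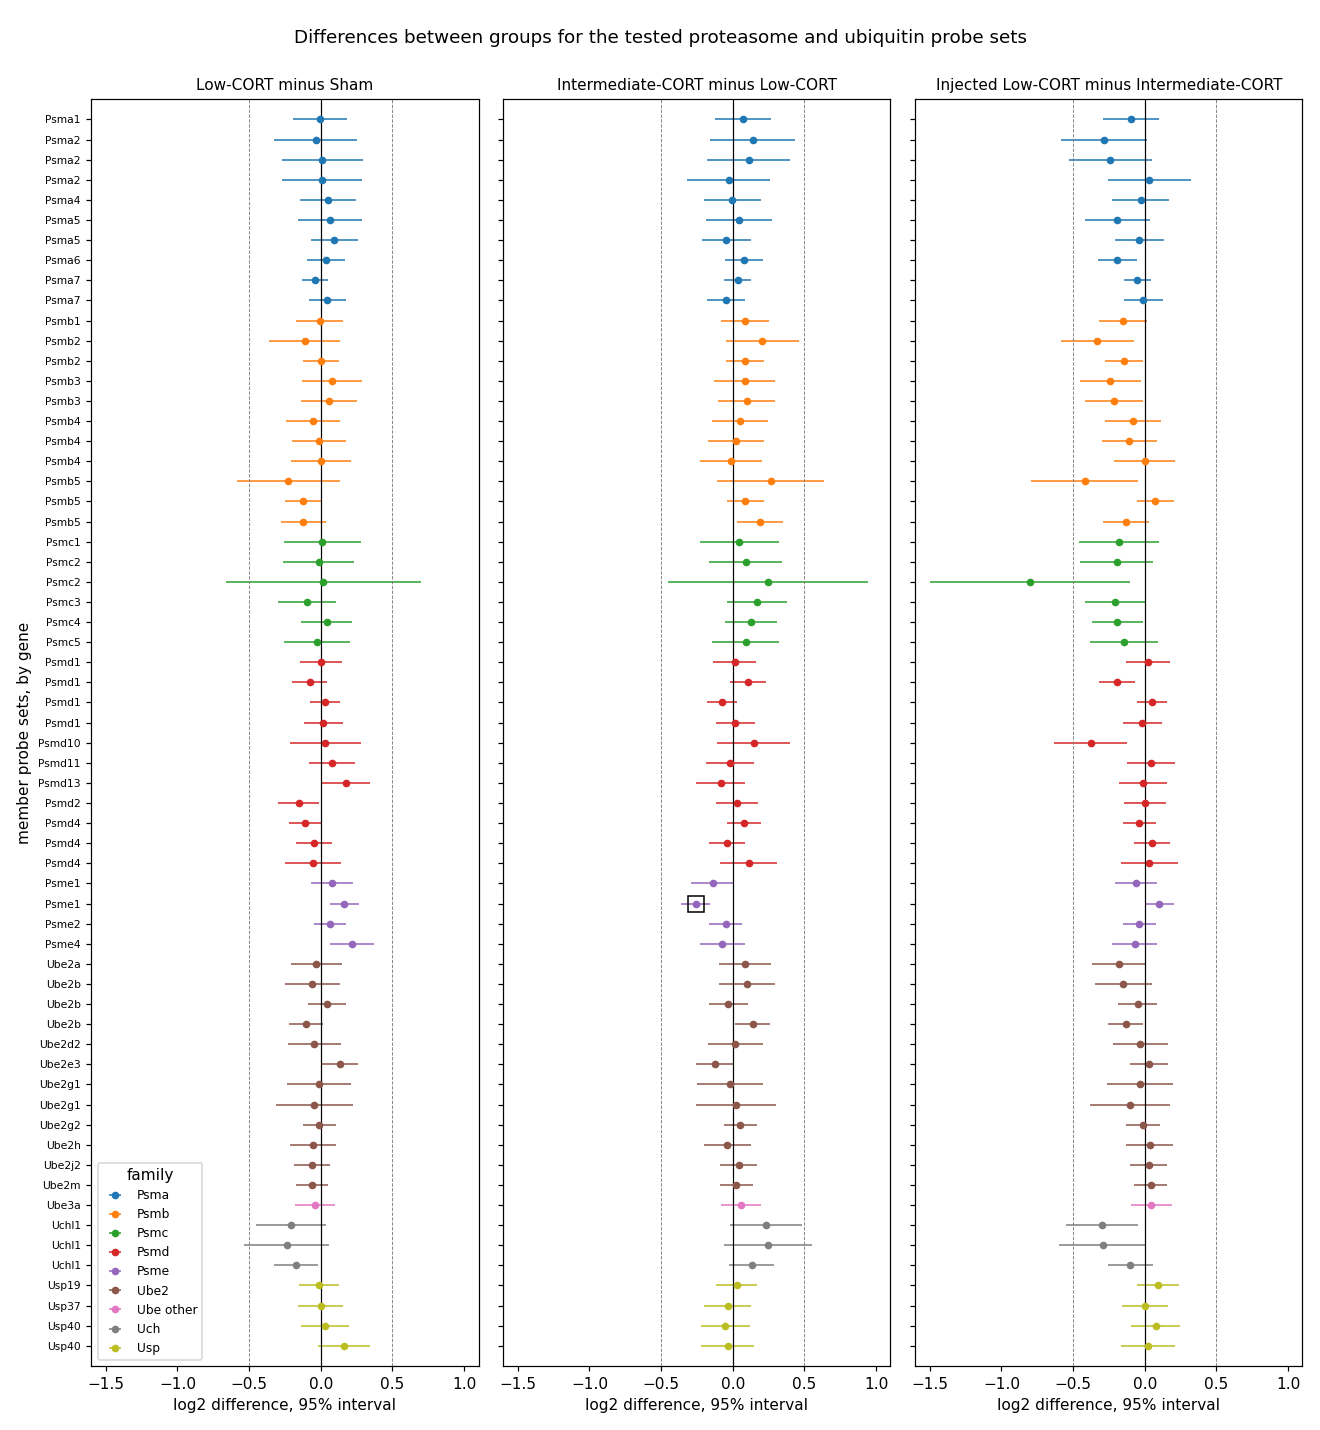
Log2 differences (points) with 95% intervals (lines) of the 62 tested member probe sets, 1 row each and coloured by family, for Low-CORT minus Sham, Intermediate-CORT minus Low-CORT and injected minus Intermediate-CORT. Dashed lines mark a difference of 0.5 either way; the square marks the 1 called member, Psme1 at -0.26 in the middle panel.

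Among the activators, the PA28 alpha subunit Psme1 stood lower in Intermediate-CORT than in Low-CORT animals. On its probe set D45249_g_at the Low-CORT arrays ran from 9.30 through a median of 9.48 to 9.69 (log2), and the Intermediate-CORT arrays from 9.08 through 9.26 to 9.32. The Sham arrays ran from 9.26 through 9.32 to 9.49, and the injected arrays from 9.12 through 9.33 to 9.49. Low-CORT animals were thus the high group and Intermediate-CORT the low one, with a small overlap between them, and the other groups lay between. The means were 9.50 ± 0.13 in Low-CORT (SD, n = 10), 9.24 ± 0.07 in Intermediate-CORT (SD, n = 9), 9.33 ± 0.08 in Sham (SD, n = 10) and 9.34 ± 0.11 in injected animals (SD, n = 10).

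The difference of Intermediate-CORT minus Low-CORT was -0.26 (SE 0.05, 95% interval -0.36 to -0.16), a level 0.835 times that of Low-CORT, with a limma adjusted p of 0.00192. All 9 Intermediate-CORT animals lay below the Low-CORT mean. The F test over the 4 groups gave an adjusted p of 0.00948. In bulk tissue, fewer cells of a type and less RNA per cell cannot be told apart, here or below. The call was kept in 39 of 39 fits that left out 1 array each, with differences of -0.28 to -0.24. Where the array left out was of the Sham or injected group, the difference could not change, only its SE and p.

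The other comparisons of this probe set were not called. Low-CORT minus Sham was 0.16 (SE 0.05, 95% interval 0.07 to 0.26) with an adjusted p of 0.0742, and 8 of 10 Low-CORT animals lay above the Sham mean. That comparison became a call when Sham replicate 7, Low-CORT replicate 20 or Low-CORT replicate 22 was left out, at 0.19 and an adjusted p of 0.0297 in the strongest of the 3. Injected minus Low-CORT was -0.16 (SE 0.05), with 10 of 10 injected animals below the Low-CORT mean and an adjusted p of 0.245. Intermediate-CORT minus Sham was -0.10 and injected minus Intermediate-CORT 0.10, neither called.

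A second Psme1 probe set, D45249_at, built on the same transcript record, gave a smaller difference. Its arrays ran from 11.21 through a median of 11.56 to 11.70 in Low-CORT and from 11.22 through 11.31 to 11.57 in Intermediate-CORT, which overlap over most of their range. The difference was -0.14 (SE 0.07, 95% interval -0.29 to 0.01), with an adjusted p of 0.472. With the 3' to 5' signal differences of the arrays as covariates, which are described further on, it was -0.21 with an adjusted p of 0.0450. In that fit 2 of 62 members were called lower, both Psme1, where 1.98% of all probe sets were. The third Psme1 probe set was below the filter and was not tested.

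Psme2, the beta subunit of PA28, did not pass in any comparison. Its arrays ran from 8.04 through 8.20 to 8.39 in Low-CORT and from 8.05 through 8.13 to 8.38 in Intermediate-CORT, so these groups overlapped almost entirely. Its difference was -0.05 with a 95% interval of -0.17 to 0.07, and no test compared the response of Psme2 with that of Psme1. Psme4, which encodes the nuclear activator PA200, had the largest positive difference of the members in Low-CORT against Sham. Its Sham arrays ran from 7.59 through 7.74 to 7.95 and its Low-CORT arrays from 7.80 through 7.97 to 8.19. The groups overlapped between 7.80 and 7.95, and 10 of 10 Low-CORT animals lay above the Sham mean. The difference was 0.22 (SE 0.08, 95% interval 0.06 to 0.37), with an adjusted p of 0.148.

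Psmb8 and Psmb9, interferon-inducible core subunits that replace Psmb5 and Psmb6 in the immunoproteasome, are not members and give the setting of Psme1. Psmb9 rose in Low-CORT against Sham on probe set D10757_g_at, whose mean level of 6.44 was near the filter, by 0.25 (SE 0.05, adjusted p 0.00599). It fell in Intermediate-CORT against Low-CORT, by 0.26 (adjusted p 0.00469). Its other probe set gave 0.09 and -0.13 for the same comparisons, and Psmb8 gave 0.19 and -0.16, none of which was called. These comparisons share the Low-CORT arrays.

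**Figure D2:**
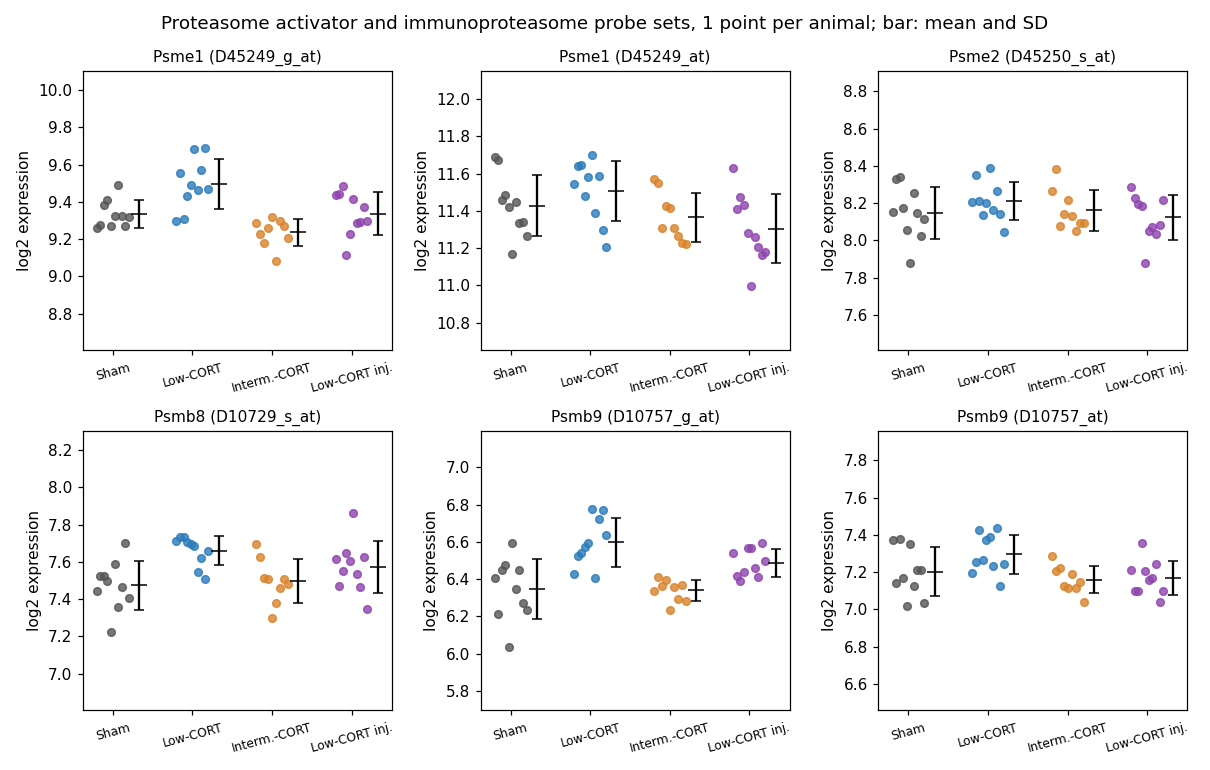
Log2 expression by group, 1 point per animal, with the mean and SD as a bar beside the points, for 2 Psme1 probe sets, Psme2, Psmb8 and 2 probe sets of Psmb9. Low-CORT animals (mean 9.50) lie mostly above Intermediate-CORT animals (mean 9.24) for Psme1 D45249_g_at, with a small overlap, and the 2 groups overlap almost entirely for Psme2.

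Lists of interferon response, microglia and endothelial markers had calls in Intermediate-CORT against Low-CORT, where Psme1 was called. All of these lists also had calls in Low-CORT against Sham, where Psme1 was not called. The interferon list, which holds Psmb8 and Psmb9, had 12 tested probe sets of 10 genes. In Low-CORT against Sham 3 were called higher and 12 of 12 were above 0, with a median of 0.14. In Intermediate-CORT against Low-CORT 2 were called lower and 11 of 12 were below 0, with a median of -0.15. Its mean level per animal ran from 7.54 to 7.65 in Sham, 7.71 to 7.88 in Low-CORT, 7.54 to 7.66 in Intermediate-CORT and 7.60 to 7.74 in injected animals. The Low-CORT animals were thus all above the Sham and Intermediate-CORT animals. In injected against Low-CORT animals 1 was called lower and 11 of 12 were below 0, with a median of -0.10.

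The microglia list had 9 tested probe sets of 6 genes (Aif1, C1qb, Cd53, Csf1r, Cx3cr1 and Ptprc), and Itgam fell below the filter. In Intermediate-CORT against Low-CORT 2 were called lower and 8 of 9 were below 0, with a median of -0.13. In Low-CORT against Sham 1 was called higher and 3 of 9 were below 0, with a median of 0.05. In injected against Low-CORT animals 0 were called and 5 of 9 were below 0, with a median of -0.01. The mean level per animal ran from 7.64 to 8.00 in Low-CORT, 7.53 to 7.87 in Intermediate-CORT, 7.53 to 7.85 in Sham and 7.52 to 7.92 in injected animals, so the groups overlapped. The endothelial list had 3 tested probe sets (Flt1, Pecam1 and Slco1a4), and Kdr fell below the filter. In Low-CORT against Sham 1 was called higher, with a median of 0.13, and in Intermediate-CORT against Low-CORT 1 was called lower and 3 of 3 were below 0, with a median of -0.11. Its mean level per animal ran from 8.06 to 8.17 in Sham, 8.18 to 8.43 in Low-CORT, 8.00 to 8.30 in Intermediate-CORT and 7.97 to 8.36 in injected animals. The part of these lists in the difference of Psme1 was not tested.

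In the 20S core, 0 of 10 Psma and 0 of 11 Psmb probe sets were called in any of the 6 comparisons. In Low-CORT against Sham the 21 core probe sets had a median difference of 0.00 and ran from -0.23 to 0.09. Of the 21, 10 were below 0, where 52.9% of all probe sets were. In Intermediate-CORT against Low-CORT the core probe sets had a median of 0.08 and ran from -0.05 to 0.26. Below 0 were 5 of 21, where 47.2% of all were. In injected against Intermediate-CORT animals, 19 of 21 were below 0, where 43.2% of all probe sets were. The core median was -0.13 with a range of -0.42 to 0.07, beside a median of 0.02 over all probe sets. With the 3' to 5' covariates the core median was -0.06. Markers of CA1 pyramidal neurons (6 probe sets of Camk2a, Hpca, Nrgn and Pou3f1) differed in the same directions in the last 2 of these comparisons. In Low-CORT against Sham, where the core median was 0.00, 0 of the 6 were called and 5 of 6 were below 0, with a median of -0.09. In Intermediate-CORT against Low-CORT 1 was called higher and 6 of 6 were above 0, with a median of 0.22, and in injected against Intermediate-CORT 1 was called lower and 5 of 6 were below 0, with a median of -0.10. Their mean level per animal ran from 9.83 to 10.27 in Sham, 9.71 to 10.12 in Low-CORT, 10.00 to 10.34 in Intermediate-CORT and 9.87 to 10.18 in injected animals. Of the interneuron probe sets, 0 of 6 were below 0 in Intermediate-CORT against Low-CORT, with a median of 0.18. In injected against Intermediate-CORT 3 of 6 were, with a median of -0.03. For astrocyte markers these counts were 2 of 12 and 8 of 12, with medians of 0.08 and -0.05. For oligodendrocyte markers they were 5 of 11, with 1 called lower, and 7 of 11. In Low-CORT against Sham 6 of 6 interneuron probe sets were below 0, with 1 called lower and a median of -0.22. Of the astrocyte and oligodendrocyte probe sets 11 of 12 and 5 of 11 were below 0 there, with medians of -0.16 and 0.01. The part of these lists in the core and Uchl1 differences was not tested.

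Psma6, an alpha ring subunit, had the smallest p of the alpha subunits. Its arrays ran from 10.31 through 10.42 to 10.64 in Intermediate-CORT and from 9.80 through 10.26 to 10.46 in the injected group, and the groups overlapped. The difference was -0.19 (SE 0.07, 95% interval -0.32 to -0.06), with an adjusted p of 0.243. Psmb2, a beta subunit without a proteolytic site, gave -0.33 (95% interval -0.59 to -0.08) on one probe set and -0.15 (95% interval -0.28 to -0.01) on the other, with adjusted p-values of 0.283 and 0.377. The probe sets of Psmb3, another beta subunit without such a site, gave -0.24 (95% interval -0.45 to -0.03) and -0.21 (95% interval -0.42 to -0.01), with adjusted p-values of 0.370 and 0.411.

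Psmb5, the subunit with the chymotrypsin-like site, had 3 probe sets that did not move together. For injected against Intermediate-CORT animals they gave -0.42, -0.13 and 0.07, and for injected against Low-CORT animals D45247_g_at gave 0.16 (95% interval 0.03 to 0.29, adjusted p 0.523). For Intermediate-CORT against Low-CORT, rc_AA891226_s_at gave 0.19 (SE 0.08, 95% interval 0.03 to 0.35, adjusted p 0.293), with all 9 Intermediate-CORT animals above the Low-CORT mean. On D45247_at the injected arrays ran from 8.29 through a median of 10.29 to 10.78. The lowest was injected replicate 35, and the next lay at 9.92. Without that array the difference from Intermediate-CORT was -0.22.

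Among the 19S ATPases, 0 of 6 Psmc probe sets were called between groups. All 6 were below 0 in injected against Intermediate-CORT animals, where 43.2% of all probe sets were. The Psmc median was -0.19, and -0.11 with the 3' to 5' covariates. Psmc2, the Rpt1 ATPase, gave the widest interval of all members, on U13895_s_at. Its arrays ran from 7.79 through 8.32 to 8.90 in Intermediate-CORT and from 5.35 through 7.95 to 8.56 in the injected group. The difference was -0.80 (SE 0.35, 95% interval -1.50 to -0.11), with an adjusted p of 0.362. Its second probe set, D50694_at, gave -0.20 for the same animals. Psmc4, the Rpt3 ATPase, gave -0.19 (95% interval -0.37 to -0.01, adjusted p 0.414).

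The low values of Psmc2 came from 3 arrays, Sham replicate 6 at 5.69, injected replicate 34 at 5.35 and injected replicate 35 at 5.47, where the other 36 arrays ran from 7.13 through a median of 8.20 to 8.90. Psmc1, another ATPase of the ring, stood at 8.93, 8.85 and 9.12 on these arrays, and between 9.56 and 10.22 on the rest. Psmc5, the Rpt6 ATPase, stood at 9.10, 9.04 and 9.43 on them and between 9.47 and 10.22 on the rest. The same 3 arrays had the lowest median correlation with the other arrays over all probe sets. Without them the Psmc median in injected against Intermediate-CORT animals was -0.06, with 5 of 6 below 0.

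Among the non-ATPase subunits of the cap, 0 of 11 Psmd probe sets were called between groups. In injected against Intermediate-CORT animals 5 of 11 were below 0, beside 43.2% of all probe sets, and the Psmd median was 0.00. Psmd10, the assembly chaperone gankyrin, gave the largest difference of the Psmd family there, -0.38 (SE 0.13, 95% interval -0.63 to -0.12), with 10 of 10 injected animals below the Intermediate-CORT mean and an adjusted p of 0.221. Its mean level of 6.31 was just above the filter. Psmd1, the Rpn2 scaffold, gave -0.19 (SE 0.06, adjusted p 0.185) on rc_AA859869_s_at, also with 10 of 10 animals below, while its other 3 probe sets ran from -0.02 to 0.05.

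Psmd2, the Rpn1 scaffold, had Sham arrays from 9.50 through 9.71 to 10.10 and Low-CORT arrays from 9.38 through 9.58 to 9.72. The difference was -0.16 (SE 0.07, 95% interval -0.30 to -0.01), with an adjusted p of 0.319. Psmd13 gave 0.17 (95% interval 0.01 to 0.34) in the same comparison, with an adjusted p of 0.336. The 3 probe sets of Psmd4, the ubiquitin receptor Rpn10, gave -0.11, -0.05 and -0.05.

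Among the ubiquitin-conjugating enzymes, 0 of 12 Ube2 probe sets were called between groups, and their median differences lay between -0.06 and 0.02 in the 6 comparisons. Ube2b, a Rad6 homologue that ubiquitylates histones, gave 0.14 (SE 0.06, 95% interval 0.02 to 0.26) on rc_AA799612_at for Intermediate-CORT against Low-CORT. All 9 Intermediate-CORT animals lay above the Low-CORT mean, and the adjusted p was 0.310. Its other 2 probe sets gave 0.10 and -0.03. In injected against Intermediate-CORT animals rc_AA799612_at gave -0.13 (95% interval -0.25 to -0.01, adjusted p 0.399). Ube2e3 gave 0.14 in Low-CORT against Sham (SE 0.06, adjusted p 0.327) and -0.13 in Intermediate-CORT against Low-CORT (adjusted p 0.452), 2 comparisons that share the Low-CORT arrays.

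Ube3a, the E3 ligase expressed from the maternal allele in neurons, was the 1 member among the other Ube genes. Its arrays ran from 7.60 through 8.08 to 8.27 in Sham, 7.85 through 7.98 to 8.24 in Low-CORT, 7.86 through 8.07 to 8.24 in Intermediate-CORT and 7.97 through 8.05 to 8.31 in injected animals. The 4 groups overlapped over most of their range. The largest of its 6 differences was 0.10, for injected against Low-CORT animals, and it was not called.

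Uchl1, a deubiquitinating enzyme abundant in neurons, had 3 probe sets and 0 calls. On rc_AA859882_s_at the Sham arrays ran from 11.97 through 12.14 to 12.40 and the Low-CORT arrays from 11.48 through 12.04 to 12.11. The Low-CORT minus Sham difference was -0.17 (SE 0.08, 95% interval -0.33 to -0.02), with 10 of 10 Low-CORT animals below the Sham mean and an adjusted p of 0.280. The other Uchl1 probe sets gave -0.21 and -0.24 there. In injected against Intermediate-CORT animals the 3 gave -0.30, -0.29 and -0.10, and their median of -0.29 became -0.03 with the 3' to 5' covariates. Without injected replicate 35 the 3 gave -0.16, -0.15 and -0.03, and without the 3 arrays described under Psmc2 they gave -0.21, -0.21 and -0.06. The 3 probe sets read 1 transcript and are not independent of each other.

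Of the ubiquitin-specific proteases, the 4 probe sets of Usp19, Usp37 and Usp40 had 0 calls. Usp19, an enzyme anchored at the endoplasmic reticulum, gave 0.12 in injected against Low-CORT animals (95% interval -0.02 to 0.26, adjusted p 0.698). Usp40 gave 0.15 in injected against Sham animals on rc_AA894080_g_at (95% interval -0.03 to 0.33, adjusted p 0.890), where its other probe set gave 0.05.

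The rest of the ubiquitin pathway was read from a list of activating enzymes, ubiquitin-like proteins, ligases, shuttle factors and assembly factors. It had 27 tested probe sets of 20 genes, none of them an activating enzyme. Psmb9, described above, was the 1 gene of the list with a call, higher in Low-CORT than in Sham and lower in Intermediate-CORT than in Low-CORT, and 0 were called in the other 4 comparisons. Its median differences lay between -0.02 and 0.03. The range over the 27 probe sets was widest in Low-CORT against Sham, from -0.35 for Vcp, the segregase that feeds proteins to the proteasome, to 0.25 for Psmb9. The Vcp value was not called (adjusted p 0.391), and the other Vcp probe set gave -0.16.

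Within groups, many members varied with the 3' to 5' signal differences of the arrays. Each array carries control probe sets at the 3' and 5' ends of the Gapdh and beta-actin transcripts, and a larger 3' minus 5' difference means less signal from the 5' end. The Gapdh difference averaged 0.70 ± 0.22 in Sham, 0.81 ± 0.24 in Low-CORT, 0.63 ± 0.21 in Intermediate-CORT (SD, n = 9) and 1.03 ± 0.60 in injected animals, where injected replicate 35 reached 2.41. In a fit with group and both differences, 25 of 62 members were related to the Gapdh difference (40.3%), where 24.7% of all probe sets were. Of these, 21 fell with it (33.9%), where 13.5% of all did, and 4 rose with it (6.45%), where 11.1% of all did. The 4 were probe sets of Psma7, Psmd1, Ube2g2 and Usp19.

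The beta-actin difference was related to 24 of 62 members (38.7%), where 35.9% of all probe sets were. Of these, 20 rose with it (32.3%), where 17.1% of all did. The 4 that fell (6.45%), where 18.8% of all fell, were probe sets of Ube2d2, Ube2g1 and Ube2h. One or both measures were related to 41 members (66.1%), where 48.2% of all probe sets were. Together they accounted for a median of 28.7% of the variance within groups in the members and 19.6% in all probe sets. By family the median was 55.1% for Psmc, 44.1% for Uch, 38.2% for Usp, 36.8% for Psma, 28.3% for Ube2, 27.6% for Psmb, 26.1% for Psmd and 16.6% for Psme, and it was 14.8% for the 1 probe set of Ube3a.

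All 6 Psmc probe sets were related to one or both measures. Of their 6 probe sets, 5 fell with the Gapdh difference and 5 rose with the beta-actin difference. Psmc2 fell by 1.88 per unit on U13895_s_at (SE 0.23, adjusted p 8.9e-08) and by 0.46 on D50694_at. For Psmb5, D45247_at fell by 1.04 (SE 0.11, adjusted p 2.9e-09) and rc_AA891226_s_at by 0.35, whereas D45247_g_at had a slope of 0.11 that was not called. The called Psme1 probe set D45249_g_at had slopes of 0.00 and 0.01, neither called, and both measures accounted for 0.398% of its variance within groups. Its slopes were -0.18 and 0.10 without injected replicate 35. Without the 3 arrays described under Psmc2 they were -0.39 (adjusted p 0.106) and 0.22, and none of these slopes was called. The other, D45249_at, fell by 0.25 per unit of the Gapdh difference (adjusted p 0.00296), and its slope was -0.20 (adjusted p 0.225) without injected replicate 35 and 0.52 (adjusted p 0.0161) without the 3 arrays.

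**Figure D3:**
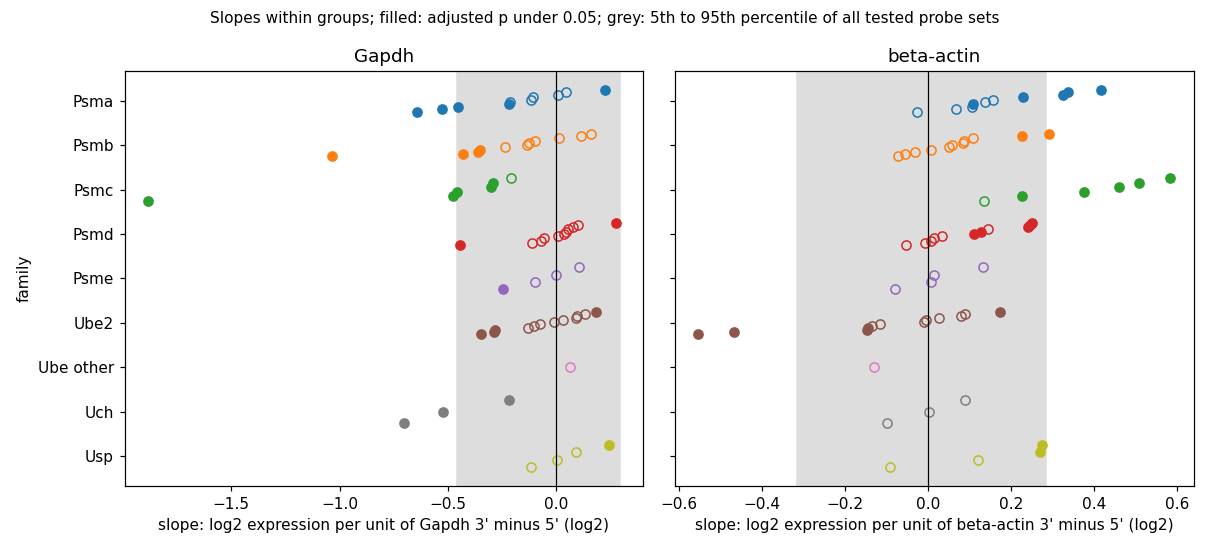
Slopes of the 62 members on the Gapdh (left) and beta-actin (right) 3' minus 5' differences within groups, in log2 expression per log2 unit, 1 point per probe set by family. Filled points are called at an adjusted p under 0.05 and the grey band spans the 5th to 95th percentile of all tested probe sets; 5 of 6 Psmc points are filled on each side.

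The separate slopes leaned on few arrays. The 3 arrays named above had a large Gapdh difference (Sham replicate 6 at 0.96, injected replicate 34 at 1.04, injected replicate 35 at 2.41) beside a beta-actin difference of at most 0.17. The other 7 arrays with a Gapdh difference as large had beta-actin differences of 1.04 to 2.13. Within groups the Gapdh and beta-actin differences correlated at 0.361 over all 39 arrays and at 0.928 without the 3 arrays. With so high a correlation, separate slopes on them are poorly told apart. Without injected replicate 35, 33 members were related to the Gapdh difference, where 37.5% of all probe sets were, and 18 of the 25 kept their call and direction. The beta-actin count then rose to 38, where 46.7% of all were. Without the 3 arrays the counts were 28 and 32, where 33.1% and 41.9% of all were, and 12 of the 25 Gapdh calls and 17 of the 24 beta-actin calls kept their direction and call.

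Psmc1, Psmc2 and Psmc5 kept falling slopes on the Gapdh difference in these fits, though that of Psmc5 was not called over all arrays (adjusted p 0.0589). The slope of Psmc1 was -0.48 over all arrays, -1.29 without injected replicate 35 and -0.89 without the 3 arrays. That of Psmb5 D45247_at was -1.04, -0.42 (adjusted p 0.0807) and -1.39 in the same fits. For Uchl1 D10699_at the slope turned, from -0.52 over all arrays to 0.46 without injected replicate 35 and 0.44 without the 3. Of the 25 members called on the Gapdh difference, the slope of 4 turned sign without injected replicate 35 (Psmc3 and Uchl1) and of 6 without the 3 arrays (Psmb3, Psmc3, Psmc4, Psme1, Uchl1 and Usp19).

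**Figure D4:**
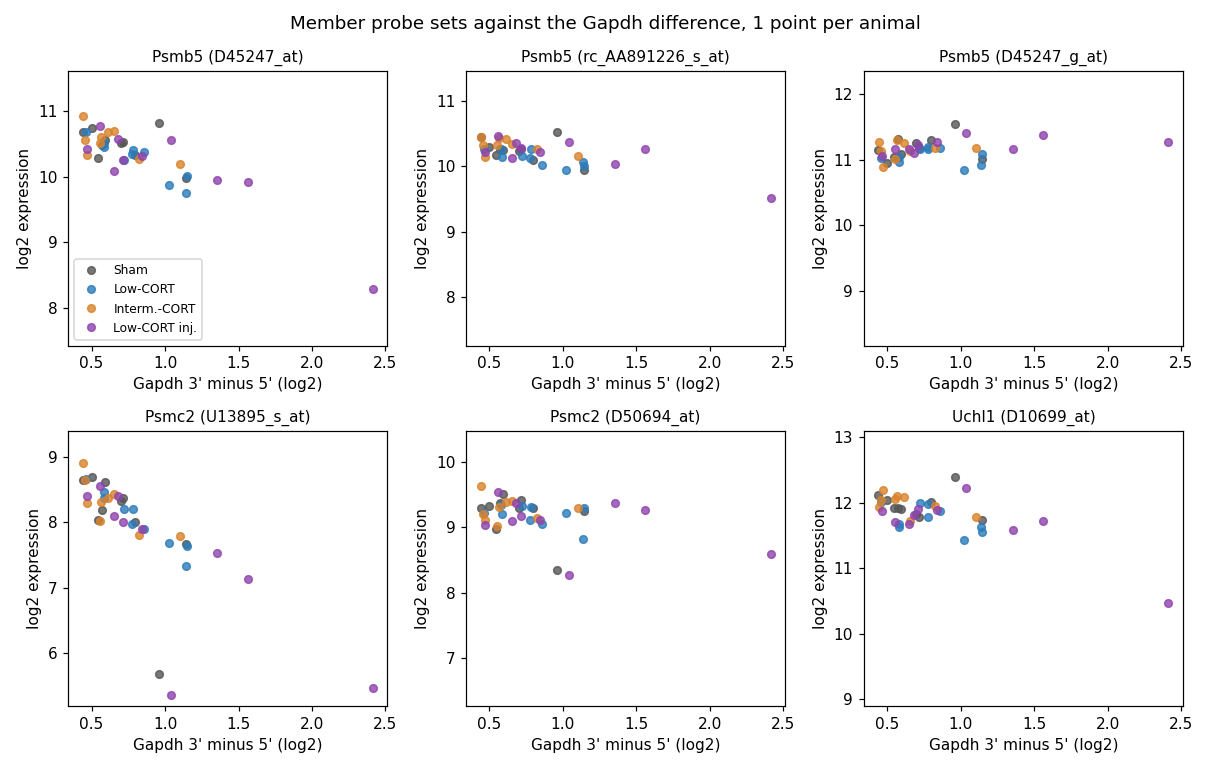
Log2 expression against the Gapdh 3' minus 5' difference (log2), 1 point per animal coloured by group, for 3 probe sets of Psmb5, 2 of Psmc2 and 1 of Uchl1. Injected replicate 35 lies at the far right at 2.41, and Sham replicate 6 and injected replicates 34 and 35 lie lowest for Psmc2 U13895_s_at.

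The signs of some group differences changed when these measures or arrays were taken into account. Over the 62 members, 44 were below 0 in injected against Low-CORT animals and 44 in injected against Intermediate-CORT animals. Of all probe sets 45.1% and 43.2% were. With the 3' to 5' covariates the counts of members were 29 and 44, and without the 3 arrays 30 and 41. In Low-CORT against Sham 35 members were below 0, where 52.9% of all probe sets were. With the covariates 40 members were, and without the 3 arrays 43. In Intermediate-CORT against Low-CORT 20 members were below 0, where 47.2% of all probe sets were. With the covariates 16 members were, and 20 without the 3 arrays, none of which belongs to those groups. Injected animals had the largest mean Gapdh difference and Intermediate-CORT animals the smallest. The part of the 3' to 5' differences in these counts was not tested. The Psme1 call was kept with the covariates (-0.26, adjusted p 0.00321) and without the 3 arrays (-0.26, adjusted p 0.00170).

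The arrays were close in median, and those described under Psmc2 had the lowest median correlations with the other arrays. These were 0.982 for injected replicate 34 and 0.983 for injected replicate 35 and Sham replicate 6. The next lowest lay close, at 0.985 for Sham replicate 5 and 0.986 for Low-CORT replicate 20. Array medians lay between 7.27 and 7.33 and correlations between arrays from 0.974 to 0.998, and 0 pairs held identical values. Of the CA1 pyramidal neuron markers, the 4 with a single-symbol probe set (Camk2a, Hpca, Nrgn and Pou3f1) were all above the filter, and their group differences are given with the 20S core. Of the dentate granule neuron markers 1 had such a probe set, Tdo2, and it was below the filter. Since each array is 1 animal, precision is set by the number of arrays.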

How the data were processed

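RNA from CA1 tissue was labelled as biotin-tagged cRNA and hybridised to Affymetrix arrays, 1 per rat, per the labels' protocols. The authors deposited log2 expression values for 8799 probe sets. MAS5, RMA and R 2.7.1 appear in the submitters' processing notes without a role, and which of these made them is not stated there. No further normalization was applied. Probe sets were named from the platform annotation: 7006 of 8740 non-control probe sets had 1 symbol, and 308 had several and were not named. The 68 members all matched the GRCr8 gene table by Entrez identifier, with 0 symbols changed. A further 7 probe sets that name a family gene among several symbols, such as Psmb6, Psma3 and Psme3, are not analysed here.

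Tests used limma 3.58.1 in R 4.3.3 on all 39 arrays, with 1 mean per group, 35 residual degrees of freedom, moderated variances and two-sided p-values. Probe sets entered when their mean was at or above the 30th percentile of the 8740, which left 6118, and each of the 6 comparisons and the F test was adjusted over all of them. Errors are SE from limma or SD over animals. A further fit added the Gapdh and beta-actin 3' minus 5' differences as covariates. The code was tested on simulated data. Named members were those called, the smallest p and highest mean per family, the 3 smallest p per direction and comparison, and a fixed list. Members and lists were chosen with earlier results of these data known.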

Additional observations from a re-analysis of the deposited data

Results flagged for a closer look

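Among 88 group values tested over 20 named probe sets and the 2 control differences, 13 had an extreme array far from the rest of its group, where chance gives about 1 in 20. Of the 13, 4 were injected replicate 35, the array with the largest Gapdh difference. It was the lowest of its group for Psmb5 on D45247_at (8.29, next 9.92) and on rc_AA891226_s_at (9.52, next 10.03). It was also the lowest for Uchl1 on D10699_at (10.47, next 11.59) and on rc_AA859882_s_at (11.41, next 11.96).

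Injected replicate 34 was the lowest of its group for Psma6 (9.80, next 10.11) and Psmd1 (9.04, next 9.32) and the highest for Psmd2 (10.04, next 9.67). Sham replicate 6 was the lowest of its group for Psmc4 (8.15, next 8.59), Psmd1 (9.12, next 9.47) and Ube2b (10.18, next 10.43).

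Low-CORT replicate 25 was lowest for Uchl1 on rc_AA859882_s_at (11.48, next 11.94) and Low-CORT replicate 20 for Ube2b (10.02, next 10.34). Intermediate-CORT replicate 19 was highest for Psmd4 (10.75, next 10.51). The causes were not tested.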

How the results depend on the processing

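The 1 call of Psme1 in Intermediate-CORT against Low-CORT was kept under every alternative run, and 0 of the named differences reversed. Counts of called members changed as follows, and the cause was not tested. Array weights, whose fit stopped before it converged, gave 2 members in the F test, 2 in Intermediate-CORT against Low-CORT (with Psmb5 at 0.20, adjusted p 0.0322) and 1 in injected against Intermediate-CORT (Psmd1 at -0.17, adjusted p 0.0394). The 3' to 5' covariates gave 2 in Intermediate-CORT against Low-CORT, both Psme1. Subject order as a covariate gave 2 in the F test, 1 in injected against Low-CORT (Psme1 D45249_at at -0.20, adjusted p 0.0360) and 15 members related to the beta-actin difference. Leaving out 1 array at a time gave 1 to 2 in the F test (2 without Sham replicate 6), 0 to 1 in Low-CORT against Sham, 24 to 33 for the Gapdh difference and 21 to 38 for the beta-actin difference. The 38 was without injected replicate 35. Leaving out that array, or the 3 arrays described under Psmc2, was chosen after seeing the data. No paired analysis was possible because the groups share no subject numbers.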
